A study of Mus musculus with 11 samples.

Results

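The 9 genes of proximal T cell receptor (TCR) signalling examined in thymocyte RNA-seq were *Lck*, *Fyn*, *Zap70*, *Lat*, *Lcp2*, *Themis*, *Csk*, *Ptprc* and *Ptpn6*. They were chosen by name for their place in proximal TCR signalling, with earlier results of these data known. All 9 were found by gene symbol among the 54418 genes of the count table. Their genotypes were wt (4 mice), Zmat3-/- (4 mice) and Puma-/-p21-/-Zmat3-/- (TKO, 3 mice), each mouse giving 1 library from cells of a whole-thymus suspension at 8 to 12 weeks of age. The null alleles are present in every cell of the mouse and every TKO mouse also lacks *Zmat3*, so the comparison of TKO with Zmat3-/- mice concerns the added loss of *Puma* and *p21* together. The cells were not sorted, and in RNA from a mixed suspension fewer cells of a type and less RNA per cell cannot be told apart.

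Proximal TCR signalling starts when a peptide held by an MHC molecule is bound by the receptor. LCK, a SRC family kinase carried by the co-receptors CD4 and CD8, then phosphorylates the CD3 chains, ZAP70 docks on them and in turn phosphorylates the scaffolds LAT and SLP-76, and calcium and RAS signalling follow. In the thymus the strength of this signal decides between positive selection, negative selection and death by neglect, and CSK, CD45 and SHP-1 set how readily it fires.

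The genes lie on 7 chromosomes of GRCm38, all of them protein-coding. *Lck* (ENSMUSG00000000409.14) spans chr4:129548344-129573641 on the minus strand, *Lat* (ENSMUSG00000030742.7) spans chr7:126363824-126369570 on the minus strand, and *Themis* (ENSMUSG00000049109.15) spans chr10:28668360-28883818 on the plus strand. Between 0 and 1.5% of the 31-base words in the transcripts of each gene also occur in transcripts of another gene. Annotated genes on the other strand overlap 282 exonic bases of *Lcp2*, 195 of *Ptpn6* and 153 of *Themis*, and the library kit does not mark strand, so reads there cannot be assigned to one strand. *Lck* is the most abundant kinase of the set and is transcribed from a proximal start, used mainly in immature thymocytes, and a distal start, used mainly in mature T cells. RefSeq places these starts 15269 bases apart, and both regions are shown because each *Lck* count below sums the transcripts of both. The distal sequence is chr4:129573642-129573891 and the proximal one chr4:129558392-129558622 (GRCm38.p6, minus strand, read towards the start), the latter without the 19 bases nearest to the start, which an annotated exon covers. Capitals mark the letters AGGAAG, an ETS-type motif, or TGTGGT, a RUNX-type motif, on either strand (CTTCCT and ACCACA on the other).
*Lck* distal: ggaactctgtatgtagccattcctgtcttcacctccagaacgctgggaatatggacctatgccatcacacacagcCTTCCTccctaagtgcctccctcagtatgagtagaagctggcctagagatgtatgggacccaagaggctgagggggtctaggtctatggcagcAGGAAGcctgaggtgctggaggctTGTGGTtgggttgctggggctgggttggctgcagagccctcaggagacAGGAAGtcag
*Lck* proximal: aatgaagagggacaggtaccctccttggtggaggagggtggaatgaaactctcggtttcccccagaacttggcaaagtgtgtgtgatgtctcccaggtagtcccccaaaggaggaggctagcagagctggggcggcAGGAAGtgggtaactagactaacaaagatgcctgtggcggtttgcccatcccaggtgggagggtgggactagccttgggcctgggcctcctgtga
AGGAAG occurs 3 times in the distal and 1 time in the proximal sequence, and TGTGGT 1 time in the distal sequence. In the 250 bases before the start, AGGAAG occurs in 29.5% and TGTGGT in 14.0% of the 32851 RefSeq promoters. The counts cannot say how much of *Lck* comes from either start.

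Total counts were 22375732 to 39510054 for wt, 25230325 to 43253895 for Zmat3-/- and 17669715 to 80207003 for TKO libraries, and no member had fewer than 3083 counts in any mouse. The targeted gene *Zmat3* was at 19.4 ± 9.58 CPM (SD, n = 4) in wt, 6.19 ± 0.703 (n = 4) in Zmat3-/- and 7.97 ± 0.464 (n = 3) in TKO mice (CPM, counts scaled to a common library size by TMM). *Bbc3*, which encodes PUMA, was at 19.0 ± 1.31, 17.6 ± 1.96 and 13.7 ± 2.12 CPM and *Cdkn1a*, which encodes p21, at 6.68 ± 3.25, 6.67 ± 1.93 and 3.14 ± 0.783 CPM in the same order. Every mutant mouse was below every wt mouse in *Zmat3*. In *Bbc3* TKO mice were below wt mice but overlapped with Zmat3-/- mice (highest 16.0 against lowest 15.5 CPM), and in *Cdkn1a* they were below Zmat3-/- mice but overlapped with wt mice (highest 3.62 against lowest 3.61 CPM). Counts over whole genes did not by themselves show the null alleles of *Bbc3* and *Cdkn1a*. wt mice 1 and 2 stood apart from the rest. Across 7995 expressed genes, their log2 CPM correlated at 0.796 to 0.870 with wt mice 3 and 4 and at 0.976 with each other, whereas wt mice 3 and 4 correlated at 0.994. In wt mice 1 and 2, 16.8% and 14.9% of counts fell on genes whose main transcript is under 1 kb and 21.8% and 24.8% on genes over 4 kb. In wt mice 3 and 4 these shares were 8.23% and 7.42%, and 38.3% and 38.7%. wt mice 1 and 2 were also the wt mice with a high *Xist* level (Zmat3-/- mice 1 and 2 and TKO mouse 1 were the others), and the labels give no sex, so *Xist* class and the length difference cannot be told apart among wt mice. The fits of the members, of the other pathway genes and of the marker lists are therefore given with and without wt mice 1 and 2. Other measures moved with the same pair. Summed B cell markers were at 764 and 875 CPM in wt mice 1 and 2 and at 491 to 564 in the other 9 mice, summed stroma markers at 265 and 246 against 162 to 219 CPM, and single-positive stage markers at 821 and 829 against 634 to 743 CPM. The pair was lowest in thymocyte markers, at 11578 and 12516 against 12979.6 to 16546 CPM, and in double-positive stage markers, at 5539.6 and 6193 against 7305 to 9415 CPM, while ribosomal protein genes took 7.68% and 6.19% against 2.85% to 4.28% of counts. The part of these in the members' values was not tested. Of the 11 thymocyte markers, including *Cd3e*, *Cd4*, *Cd8a* and *Rag1*, none was undetected. Over all mice, summed myeloid markers ranged from 196 to 463 CPM and erythroid markers from 883 to 8772 CPM.

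The kinases head the pathway. *Lck*, whose product phosphorylates the CD3 chains, was at 2075, 1936, 1365 and 1353 CPM in wt mice 1 to 4, at 1396, 1399, 1387 and 1407 CPM in Zmat3-/- mice 1 to 4, and at 1566, 1551 and 1407 CPM in TKO mice 1 to 3. The 4 Zmat3-/- mice lay within 1.01-fold of each other, while wt mice 1 and 2 were above every other mouse. *Fyn*, the second SRC family kinase of T cells, was at 169, 192, 152 and 165 CPM in wt, 176, 164, 164 and 162 CPM in Zmat3-/- and 182, 181 and 172 CPM in TKO mice. Its groups lay close together, and both mutant groups overlapped with wt. *Zap70*, the kinase recruited to phosphorylated CD3 chains, was at 228, 205, 169.8 and 161 CPM in wt, 178, 174, 175 and 176 CPM in Zmat3-/- and 183, 191 and 179 CPM in TKO mice. As for *Lck*, wt mice 1 and 2 were the highest of all mice.

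The scaffolds and the adaptor THEMIS followed. *Lat*, the membrane scaffold that ZAP70 phosphorylates, was at 1616, 1215, 759 and 747 CPM in wt, 660.4, 712, 682 and 748 CPM in Zmat3-/- and 759, 806 and 656 CPM in TKO mice. Its highest wt mouse was 2.16-fold above its lowest, and wt mice 3 and 4 lay among the mutant mice. *Lcp2*, which encodes SLP-76, the cytosolic partner of LAT, was at 339, 359, 305 and 305 CPM in wt, 305, 309.6, 311 and 324 CPM in Zmat3-/- and 323, 319 and 318 CPM in TKO mice. wt mice 1 and 2 were again the highest, and the groups overlapped. *Themis*, a thymocyte adaptor needed for positive selection, was at 345, 469, 782 and 756 CPM in wt, 701, 698, 757 and 831 CPM in Zmat3-/- and 809.8, 732 and 764 CPM in TKO mice. Here wt mice 1 and 2 were the lowest of all mice, the reverse of *Lat*, and wt mice 3 and 4 again lay among the mutants.

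Among the regulators, *Csk*, the kinase that holds LCK and FYN inactive, was at 298, 289, 224 and 230.5 CPM in wt, 278, 266, 253 and 255 CPM in Zmat3-/- and 269.7, 292 and 287 CPM in TKO mice. All mutant mice were above wt mice 3 and 4. *Ptprc*, the gene of the phosphatase CD45 that removes the inhibitory phosphate from LCK, was at 946, 1209, 2000.5 and 1954 CPM in wt, 1562, 1640.0, 1797 and 1938 CPM in Zmat3-/- and 1785, 1826 and 1912 CPM in TKO mice. All mutant mice lay above wt mice 1 and 2 and below wt mice 3 and 4. *Ptpn6*, the gene of the inhibitory phosphatase SHP-1, was at 256, 257, 187 and 178 CPM in wt, 216, 207, 187 and 187 CPM in Zmat3-/- and 198, 215 and 185 CPM in TKO mice. Once more wt mice 1 and 2 were the highest.

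**Figure D1:**
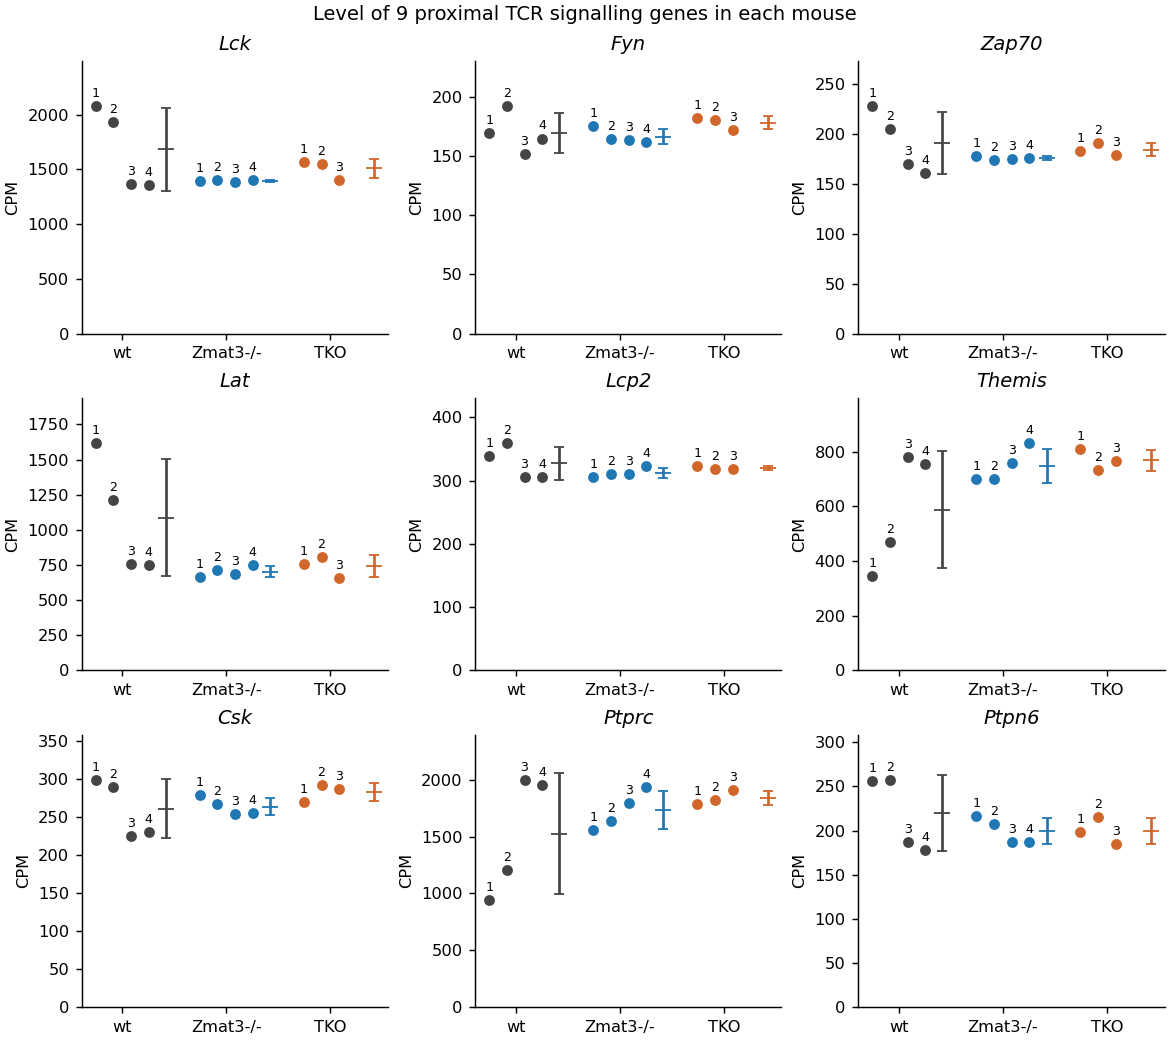
CPM of each of the 9 genes (linear axis from 0) in every mouse, numbered within wt, Zmat3-/- and TKO, with the mean and SD of each group beside its points. The wt mice fall into mice 1 and 2 and mice 3 and 4 for all 9 genes, above in 7 and below in *Themis* and *Ptprc*, while the mutant mice lie close together.

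The order of the 9 genes can be read per kilobase of main transcript. In wt mice *Lat* (878 ± 337 CPM per kb, SD, n = 4) and *Lck* (769.9 ± 173) led and overlapped with each other, followed by *Ptprc* (325 ± 113) and *Themis* (116 ± 42.4). From *Themis* through *Ptpn6* (99.0), *Csk* (94.7) and *Lcp2* (89.7) to *Zap70* (85.0), neighbours in the order overlapped, and *Fyn* (47.6 ± 4.66) was below them all without overlap. The lead of *Lat* came from wt mice 1 and 2. In wt mice 3 and 4 *Lat* was at 615 and 605 and *Lck* at 625 and 619 CPM per kb, with *Lck* first as in both mutants. In Zmat3-/- mice *Lck* (639 ± 3.74 CPM per kb, n = 4) was above *Lat* (567 ± 30.8) without overlap. In TKO mice *Lck* (690.2 ± 40.1, n = 3) and *Lat* (599 ± 62.3) overlapped. *Fyn* was lowest in both mutants too, at 46.7 ± 1.77 and 50.1 ± 1.49 CPM per kb.

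None of the 9 genes changed between genotypes in edgeR's quasi-likelihood test at an adjusted p under 0.05. In TKO against wt mice 0 of 9 passed, beside 0.294% of the 13275 genes tested, in Zmat3-/- against wt mice 0 of 9 beside 0.764% of 13480, and in TKO against Zmat3-/- mice 0 of 9 beside 0.221% of 13132. With the study's added threshold of an absolute log2FC above 1.5, the background was 0.241%, 0.319% and 0.122%, again with no member. At an unadjusted p under 0.05, 0, 1 and 0 of the members passed, beside 10.3%, 16.1% and 4.50% of all genes, and DESeq2 called 0 members in each comparison. With the replicate number as a block, 1 and 0 passed an unadjusted p under 0.05 against wt in TKO and Zmat3-/- mice, beside 16.2% and 15.3% of all genes. At these background shares a count of 0 or 1 among 9 genes does not set the members apart. Both comparisons with wt use the same wt mice, so their values are given side by side and are not separate evidence.

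The size of change that the data allow differed between the comparisons. *Lat* had the lowest log2FC against wt, at -0.62 in Zmat3-/- mice (SE 0.250, 95% interval -1.19 to -0.05, unadjusted p = 0.0366 and adjusted p = 0.274 from edgeR) and -0.55 in TKO mice (interval -1.25 to 0.15, adjusted p = 0.564). *Themis* had the highest, at 0.35 in Zmat3-/- mice (interval -0.24 to 0.95) and 0.39 in TKO mice (interval -0.30 to 1.07). With the block *Lat* was at -0.63 in TKO mice (interval -1.21 to -0.04, unadjusted p = 0.0390 and adjusted p = 0.305 from edgeR) and at -0.54 in Zmat3-/- mice (interval -1.15 to 0.07, unadjusted p = 0.0731 and adjusted p = 0.357), and in TKO mice *Themis* moved to 0.62 and *Ptprc* to 0.49. Without the block, the other 7 genes lay between -0.26 (*Lck*) and 0.19 (*Ptprc*) in Zmat3-/- and between -0.16 (*Lck*) and 0.27 (*Ptprc*) in TKO mice. The median over all 9 was -0.06 in Zmat3-/- and -0.03 in TKO mice, beside -0.03 and -0.04 over all genes tested. A change of 2-fold in *Lat* or *Themis* is within some of these intervals, so for them a change was not detectable rather than absent. No member was without overlap between TKO and wt mice, beside 6.43% of genes with every TKO mouse above and 7.48% below every wt mouse, or between Zmat3-/- and wt mice, beside 7.01% above and 7.22% below. In the exact permutation test of log2 CPM (two-sided, smallest possible p = 0.0286), *Lat* gave p = 0.0571 between Zmat3-/- and wt mice, and no member reached a lower p in either comparison with wt.

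**Figure D2:**
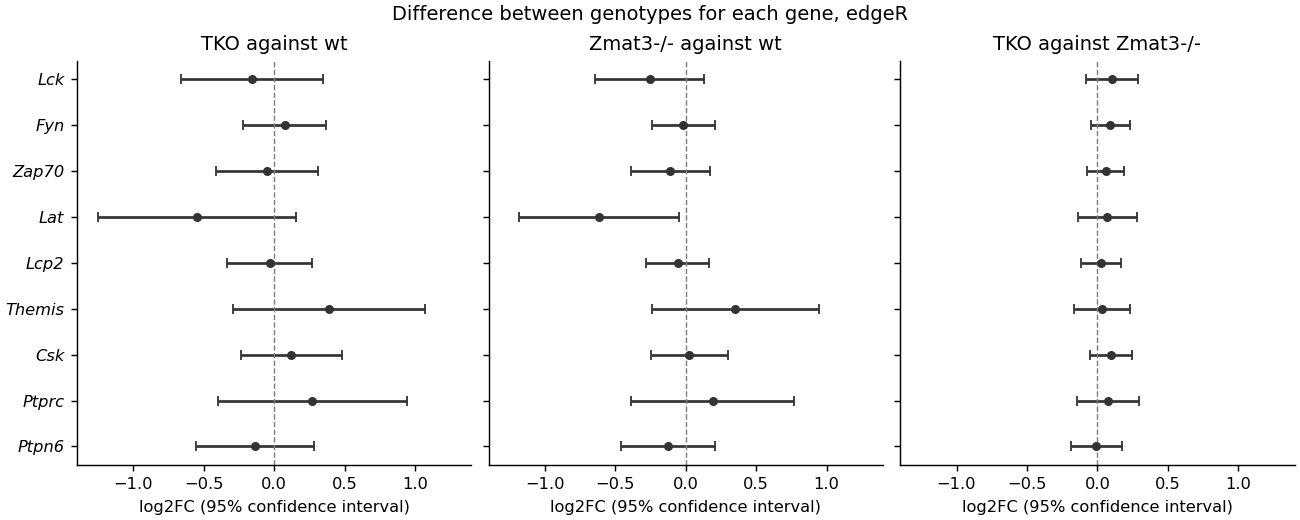
log2FC of each gene with its 95% confidence interval (edgeR) in the 3 comparisons of genotypes; the dashed line marks no difference. Intervals against wt are wide, from -1.25 to 1.07, while those of TKO against Zmat3-/- mice all lie within -0.19 and 0.30.

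TKO and Zmat3-/- mice, which do not involve wt mice 1 and 2, were compared more precisely. The largest log2FC among the members was 0.10 for *Lck* (SE 0.0828, interval -0.08 to 0.29, adjusted p = 0.982 from edgeR) and the smallest was -0.01 for *Ptpn6* (interval -0.19 to 0.17). All 9 intervals lay between -0.19 and 0.30. Of the 9 genes, 8 had a log2FC above 0, with a median of 0.07 beside -0.01 over all genes tested. Every TKO mouse was above every Zmat3-/- mouse for *Lck* and *Zap70*, beside 2.95% of all genes tested (and 2.68% below), but the nearest mice were only 0.000659 and 0.00401 apart in log2 CPM. Their differences in mean log2 CPM were 0.11 and 0.07, each with exact permutation p = 0.0286 (two-sided, 27 member tests in all, the smallest p possible). The size of these gaps depends on the scaling of TKO mouse 3, the deepest library. Factors computed over all genes, with no filter, move that mouse by 0.17 on the log2 scale. *Lck* and *Zap70* then still do not overlap, with gaps of 0.0923 and 0.0424, and *Fyn* is added, beside 3.49% of all genes. No gene of the 9 passed the test across all genes.

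The wt mice divided in the same way at every member. *Lck*, *Fyn*, *Zap70*, *Lat*, *Lcp2*, *Ptpn6* and *Csk* were higher in both wt mice 1 and 2 than in wt mice 3 and 4, and *Themis* and *Ptprc* were lower in both. The same held in either direction for 81.7% of the 13480 genes tested. In Zmat3-/- mice, where mice 1 and 2 are also those with high *Xist*, *Fyn*, *Ptpn6* and *Csk* were higher and *Lcp2*, *Themis* and *Ptprc* lower in mice 1 and 2, beside 54.2% of all genes.

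The division of the members followed the length of their main transcript. Lengths ran from 1235 bases for *Lat* through 2185 for *Lck*, 2219 for *Ptpn6*, 2245 for *Zap70*, 2749 for *Csk*, 3562 for *Fyn* and 3644 for *Lcp2* to 4702 for *Ptprc* and 5082 for *Themis*. In wt mouse 1 the deviation of log2 CPM from the mean of all 11 mice was 0.99 for *Lat*, 0.45 for *Lck*, 0.16 for *Csk*, -0.01 for *Fyn*, -0.80 for *Ptprc* and -0.97 for *Themis*. Spearman's rank correlation of these deviations with length over the 9 genes was -0.98 in wt mouse 1 and -0.87 in wt mouse 2, and 0.48 and 0.65 in wt mice 3 and 4, as a description of 9 genes that share each library. In the mutants it was 0.30 to 0.97 over Zmat3-/- mice and 0.63 to 0.90 over TKO mice, with wt mice 1 and 2 part of the mean from which all deviations were taken. Over all 13513 genes with a length it was -0.57, -0.56, 0.29 and 0.33 in wt mice 1 to 4. Genes under 1 kb were higher by a median log2 of 0.74 and 0.46 in wt mice 1 and 2, and those over 6 kb had medians of -0.70 and -0.54.

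**Figure D3:**
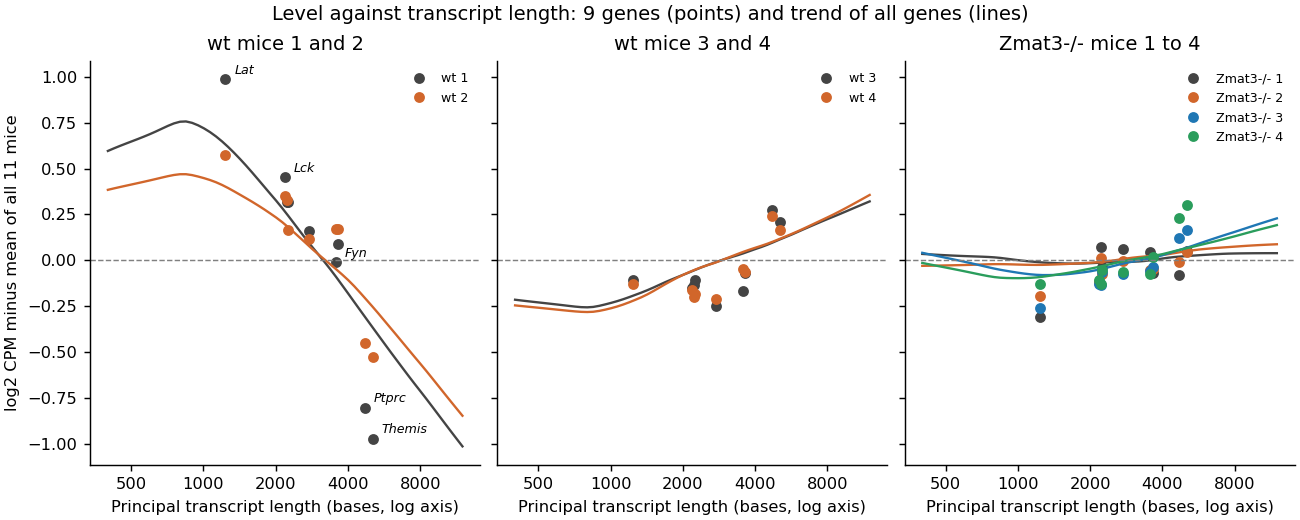
Deviation of log2 CPM from the mean of all 11 mice (vertical) against main transcript length in bases (log axis), with points for the 9 genes and lines for the trend over all genes, in wt mice 1 and 2, wt mice 3 and 4, and Zmat3-/- mice. In wt mouse 1 the points fall from 0.99 for *Lat* to -0.97 for *Themis*, steeper than the line.

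Removing each mouse's length trend, a step chosen after seeing the data, narrowed the spread of 7 genes. The SD of log2 CPM among wt mice went from 0.54 to 0.12 for *Lat*, from 0.23 to 0.08 for *Zap70*, from 0.33 to 0.16 for *Lck*, from 0.57 to 0.32 for *Themis* and from 0.53 to 0.32 for *Ptprc*. For *Fyn* it widened from 0.14 to 0.19 and for *Lcp2* from 0.12 to 0.19. After removal, wt mice 1 and 2 still lay on the same side of wt mice 3 and 4 at every member. The remainder was 0.19 and 0.16 against -0.09 and -0.11 for *Lck*, and -0.60 and -0.27 against 0.10 and 0.05 for *Themis*. In the fit with these trends as offsets, the log2FC of *Lat* in Zmat3-/- against wt mice was -0.35 (interval -0.56 to -0.14, adjusted p = 0.0869 from edgeR) and in TKO against wt mice -0.23 (interval -0.48 to 0.03, adjusted p = 0.449). No member was called, beside 397 of 13480 genes in Zmat3-/- and 78 of 13275 in TKO against wt mice. *Themis* was at 0.25 and 0.27.

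Leaving out wt mice 1 and 2, also chosen after seeing the data, turned the direction of most members. In Zmat3-/- against wt mice 3 and 4, the log2FC of *Lat* was -0.10 (interval -0.26 to 0.05), that of *Themis* -0.04 and that of *Ptprc* -0.19, while *Lck* was at 0.04, *Zap70* at 0.09 and *Ptpn6* at 0.13. *Csk* rose, at 0.21 (interval 0.08 to 0.35, adjusted p = 0.0240 from edgeR), the 1 member called, beside 33.0% of 14089 genes. With length offsets as well, *Csk* (0.22, adjusted p = 0.0147) and *Lat* (-0.23, adjusted p = 0.0316) were called, beside 31.4%. In TKO against wt mice 3 and 4 *Csk* was at 0.31 (interval 0.12 to 0.51, adjusted p = 0.0590) with no member called beside 8.14%, and at 0.33 (adjusted p = 0.0406) with length offsets, beside 9.54%. In the fit of Zmat3-/- against wt mice 3 and 4 without offsets, 7 of 12 myeloid and 7 of 10 stroma markers rose, and *Cd3e* (-0.39), *Cd8a* (-0.27) and *Rag2* (-0.42), 3 of 11 thymocyte markers, fell, named after their values were seen. In TKO mice no marker of these lists was called, and with all 4 wt mice none was called in either comparison. The part of other cells in the values of *Csk* and *Lat* was not tested. These fits rest on 2 wt mice with low *Xist* against mutants of both classes, and the shares of all genes called are far above those with 4 wt mice.

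**Figure D4:**
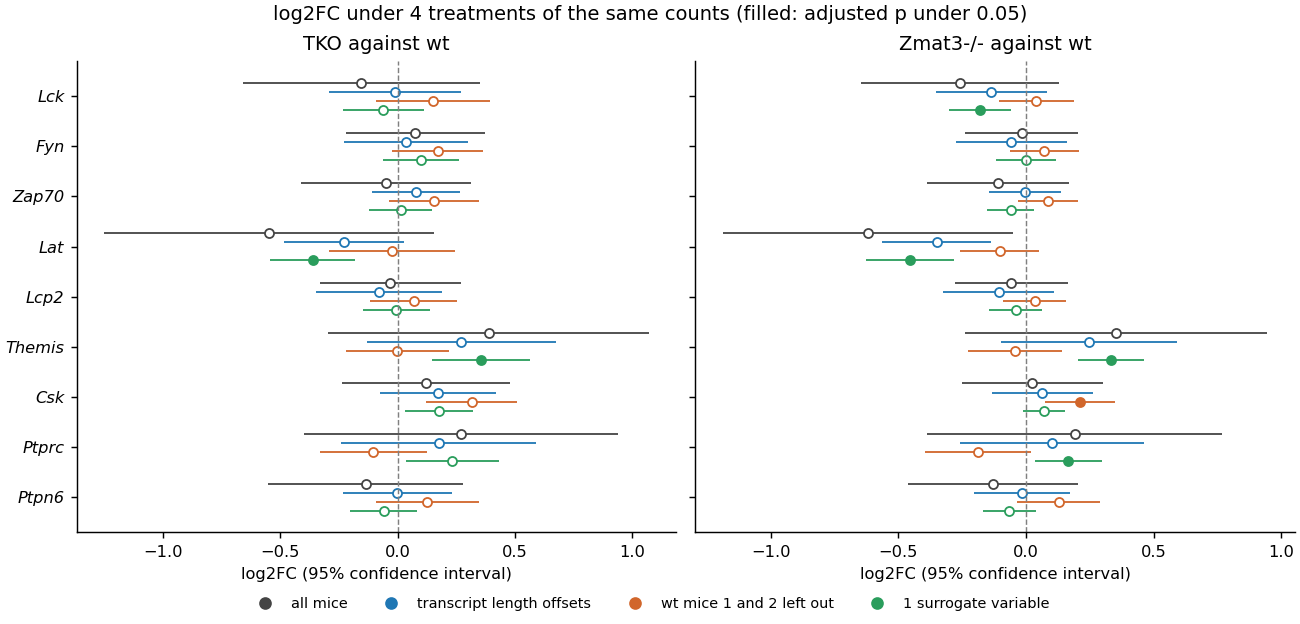
log2FC with 95% confidence interval of each gene against wt in TKO (left) and Zmat3-/- mice (right) with all mice, with transcript length offsets, with wt mice 1 and 2 left out and with 1 surrogate variable; filled points have an adjusted p under 0.05. *Lat* moves from -0.62 to -0.10 in Zmat3-/- mice when wt mice 1 and 2 are left out, and *Csk* from 0.03 to 0.21.

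A term for 1 surrogate variable, an estimated hidden factor of the kind that the study's own model held, gave more calls. In Zmat3-/- against wt mice *Lat* (-0.45, adjusted p = 0.00114 from edgeR) and *Lck* (-0.18, adjusted p = 0.0255) fell and *Themis* (0.33, adjusted p = 0.00131) and *Ptprc* (0.17) rose, 4 of 9 beside 37.8% of all genes. In TKO against wt mice *Lat* fell (-0.36, adjusted p = 0.0163) and *Themis* rose (0.35, adjusted p = 0.0295), 2 of 9 beside 18.0%. Read against these shares, the counts do not set the members apart.

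Within *Xist* classes the differences from wt mice were unlike. Among mice with high *Xist*, Zmat3-/- minus wt in mean log2 CPM was -1.03 for *Lat*, -0.52 for *Lck*, 0.58 for *Ptprc* and 0.80 for *Themis* (2 mice against 2). Among mice with low *Xist*, the same difference was -0.08 for *Lat*, 0.04 for *Lck*, -0.08 for *Ptprc* and 0.04 for *Themis*, and over all 9 genes it lay between -0.08 and 0.16. TKO minus wt ran from -0.88 (*Lat*) to 1.01 (*Themis*) with high *Xist*, where there was 1 TKO mouse, and from -0.08 (*Ptprc*) to 0.35 (*Csk*) with low *Xist*, with 6 of 9 genes above 0. TKO minus Zmat3-/- stayed between -0.09 and 0.21 in both classes. In a test of the difference itself, by an interaction of genotype and *Xist* class in edgeR, 7 of 9 genes passed beside 44.2% of all genes, and 2 of 9 with length offsets beside 24.5%.

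The rest of the pathway was read from 73 further genes in lists of receptor and co-receptor chains (14), signalling partners (26), inhibitors (21) and relatives of the members (13), with *Ptpn11* in the last pair of lists. The list of inhibitors is broad and also holds regulators that are not plain inhibitors, such as *Ptprcap*. Of the 73 genes, 72 were tested, and edgeR called 0 in each comparison. At an unadjusted p under 0.05, 5 passed in TKO against wt, 7 in Zmat3-/- against wt and 2 in TKO against Zmat3-/- mice, beside 10.3%, 16.1% and 4.50% of all genes. *Tec*, which encodes a TEC family kinase, was called by edgeR in other settings. It fell with all genotypes in one fit (-0.77, adjusted p = 0.0497 in TKO and -0.71, adjusted p = 0.0459 in Zmat3-/- against wt mice), and in Zmat3-/- against wt mice with total counts (-0.80, adjusted p = 0.0387) and with length offsets (-0.64, adjusted p = 0.0338). In the same order, these fits called 220 of 13536, 230 of 13271, 166 of 13480 and 397 of 13480 genes. Beside these shares, 1 call among 72 genes does not set *Tec* apart. With the replicate block, alone or with length offsets, 0 of the 72 were called in either comparison with wt. DESeq2 called 1, 6 and 1, which were *Tec* (log2FC -0.75), then *Cd3e* (-0.47), *Cd8a* (-0.23), *Tec* (-0.69), *Prkcq* (0.22), *Gab2* (0.86) and *Lime1* (-0.47), and then *Ubash3a* (0.34), all named after their values were seen. DESeq2 called 2.88%, 8.03% and 0.548% of all genes in the same comparisons.

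Receptor and co-receptor chains, which carry the signal into the cell, were lower in more cases than they were higher against wt mice. Of 14, 11 had a log2FC below 0 in TKO and 11 in Zmat3-/- mice, with medians of -0.21 and -0.24. The 3 with the highest level per kilobase in wt mice were *Trbc2*, *Trbc1* and *Cd8b1*, at 2919, 2366 and 821 CPM per kb, and their log2FC in Zmat3-/- mice was -0.31, -0.09 and -0.29, none of them past the test. Main transcripts of the list are short, with a median of 1550 bases. With length offsets the medians became -0.01 and -0.06, and without wt mice 1 and 2 they became 0.07 and 0.11, with 1 (*Cd28*) of 14 chains called beside 8.14% of all genes and 7 of 14 beside 33.0%.

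Signalling partners, among them *Plcg1* and *Vav1*, had median log2FC of 0.09 in TKO and 0.13 in Zmat3-/- mice against wt, and 0.0722 and 0.0596 without wt mice 1 and 2. Without wt mouse 1 alone the median in Zmat3-/- mice was 0.0386, and with total counts 0.00349. Their highest per kilobase were *Skap1* (178 CPM per kb), *Sh2d1a* (152) and *Rasgrp1* (106), with log2FC of -0.17, -0.20 and 0.35 in Zmat3-/- mice and adjusted p of 0.710, 0.600 and 0.415 from edgeR. Inhibitors had medians of 0.04 and 0.03, and 0.0144 and -0.0115 without wt mice 1 and 2. *Ptprcap*, which binds CD45, was the highest of them at 333 CPM per kb, with a log2FC of -0.59 in Zmat3-/- mice (adjusted p = 0.319), ahead of *Sla* (183) and *Dgka* (177), at 0.12 and -0.05. Relatives of the members, at much lower levels, had medians of 0.16 and 0.25, and 0.27 and 0.25 without wt mice 1 and 2, while without TKO mouse 2 the median in TKO mice was -0.0194 and without Zmat3-/- mouse 1 that in Zmat3-/- mice was 0.10. *Ptpn11*, *Matk* and *Syk* led them at 19.0, 9.98 and 9.80 CPM per kb. In TKO against Zmat3-/- mice the medians of receptor chains, partners, inhibitors and relatives were -0.01, -0.02, 0.01 and -0.07. Single mice decided their sign, with relatives at 0.10 without TKO mouse 3, inhibitors at -0.0237 without TKO mouse 1, and receptor chains at 0.0516 and partners at 0.0132 without TKO mouse 2. Without wt mice 1 and 2, 1 partner, 0 inhibitors and 0 relatives were called in TKO mice, and 7, 7 and 3 in Zmat3-/- mice, beside the same 8.14% and 33.0% of all genes.

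**Figure D5:**
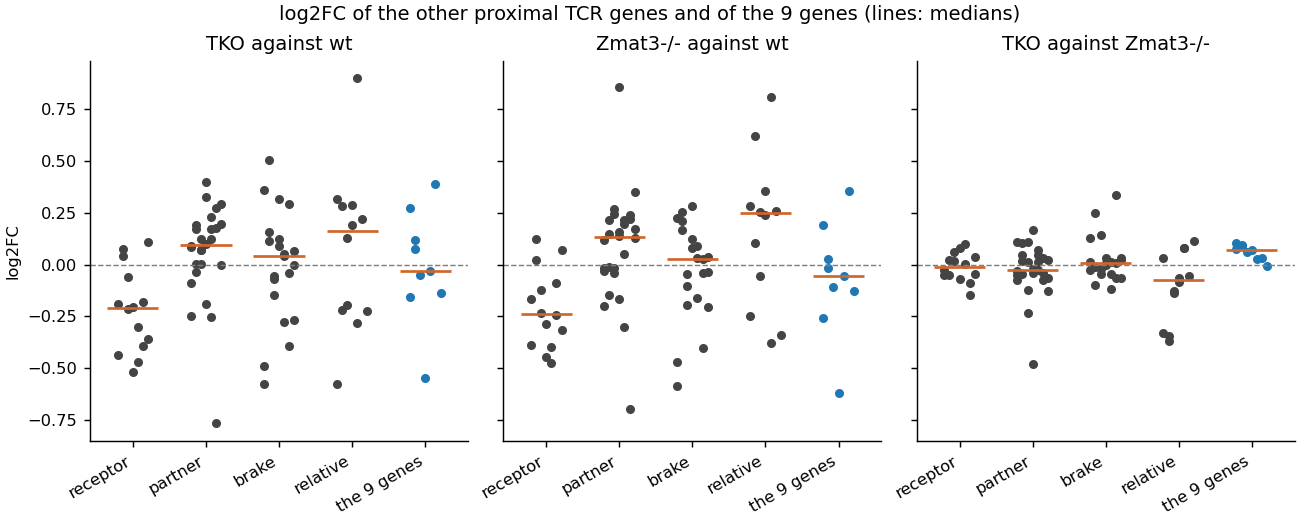
log2FC (edgeR) of 72 further proximal TCR genes by list and of the 9 genes (blue) in each comparison, 1 point per gene, with medians as lines. Receptor chains have medians of -0.21 and -0.24 against wt mice, and the spread is narrower in TKO against Zmat3-/- mice.

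Stage and activity markers were set beside these values. Immediate-early genes, which TCR and stress signals induce within minutes, were summed at 779 to 1159 CPM over wt mice, 1559 to 1938 over Zmat3-/- mice and 1639.7 to 1935 over TKO mice, and 5 of 15 rose against wt in each comparison by edgeR, beside 0.294% of all genes in TKO and 0.764% in Zmat3-/- mice. The 5, named after their values were seen, were *Fosb* (log2FC 3.84 in TKO and 3.73 in Zmat3-/- mice), *Nr4a1* (log2FC 1.15 in TKO and 1.13 in Zmat3-/- mice), *Nr4a2* (log2FC 2.21 in TKO and 2.26 in Zmat3-/- mice), *Dusp1* (log2FC 2.37 in TKO and 2.29 in Zmat3-/- mice) and *Klf4* (log2FC 3.05 in TKO and 2.89 in Zmat3-/- mice). Double-positive stage markers, summed at 5539.6 to 9379 CPM over wt mice, 7305 to 8901 over Zmat3-/- mice and 8246 to 9415 in TKO mice, had none called, and of 10 single-positive markers 1 (*Ms4a4b*, named after its value was seen) fell in Zmat3-/- against wt mice, beside the same 0.764%. Without wt mice 1 and 2, 10 immediate-early genes rose and 2 fell in TKO mice, and 10 rose and 4 fell in Zmat3-/- mice, all 5 named genes among those that rose, beside 8.14% and 33.0% of all genes called in either direction. Of the double-positive markers *Aqp11* then fell in both and *Rag2* in Zmat3-/- mice, again named after their values were seen, and of the single-positive markers 2 rose and 2 fell in TKO and 2 rose and 3 fell in Zmat3-/- mice. Of the double-negative markers *Hes1* rose in both and *Spi1* in Zmat3-/- mice, of the B cell markers *Blnk* rose in Zmat3-/- mice, and no erythroid marker was called. The part of stage or activity in the members' levels was not tested.

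The genes most like each member over the 11 mice were found by the smallest root-mean-square difference of centred log2 CPM among 13504 genes. The nearest to *Lck* was *Bcat2* (0.0359, beside an SD of 0.21 for *Lck* itself), to *Lat* *Ptprcap* (0.0711, beside 0.41), to *Themis* *Wdfy2* (0.0528, beside 0.39) and to *Lcp2* *Sash3* (0.0294, beside 0.07). For *Fyn*, *Zap70*, *Csk* and *Ptpn6* they were *Pex5*, *Adipor1*, *Pcbp1* and *Snx6*, at 0.0348 to 0.0556, and for *Ptprc* it was *D10Wsu102e* (0.0463). *Ptprcap* has a main transcript of 927 bases, short like that of *Lat*. Nearest to the mean profile of the 9 genes were *Pip4k2c*, *Rnf4*, *Rxrb*, *M6pr* and *Vapb*, at 0.0268 to 0.0420.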

How the data were processed

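Thymocyte libraries of 11 mice (4 wt, 4 Zmat3-/-, 3 TKO) were used, and p-values measure the spread between these mice. The authors quantified reads with Salmon against GRCm38.p6 and deposited one table of estimated counts per gene, not normalized, in whole numbers. A surplus of short transcripts in a library would enter these counts directly. Samples were grouped by the genotype and number in their labels. Genes were named through GENCODE M21 (54166 of 54418 matched), whereas the authors used a later release, and transcript length is that of the principal transcript.

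Genotypes were compared pairwise with edgeR 4.0.16 in R 4.3.3 (TMM, quasi-likelihood F-test, two-sided, Benjamini-Hochberg over all genes tested). A gene was tested if, after scaling counts to the shallowest library, it had 20 or more in enough mice to fill the smaller group. As in the study, *Xist*, genes of chromosome Y, rRNA and immunoglobulin pseudogenes did not enter. Standard errors were obtained from log2FC and the F statistic. CPM used TMM factors over the genes tested in 11 mice (factors over all genes were an alternative added after seeing the data), and log2 CPM a prior count of 2. Nothing says whether a number marks a litter or batch. Deviations of same-numbered mice correlated positively against wt (0.19, 0.38 and 0.49 for TKO, and 0.48, 0.21, 0.38 and 0.40 for Zmat3-/-), so a block was fitted. Mice of unlike number were not compared in this way. In wt and Zmat3-/- mice the number also goes with *Xist* class, so a shared number need not mean pairing. The block called 0 members and lowered the calls over all genes from 39 to 16 in TKO and from 103 to 12 in Zmat3-/- against wt mice.

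The study adjusted for sex and surrogate variables with DESeq2 (1.40.0 per the labels). Sex is not in the labels and the number of surrogate variables is not stated, so edgeR without them was the main test, and DESeq2 1.42.0 and 1 surrogate variable (sva 3.50.0) were alternatives, beside RLE factors, total counts, no filter, all genotypes in one fit, the *Xist* level, the block and each mouse left out. Length offsets (lowess, span 0.3) and leaving out wt mice 1 and 2 were added after seeing the data. The pairwise edgeR fit, with and without length offsets, was tested on simulated counts, and the other settings were not. The members and lists were chosen with earlier results of these data known. Named were the 9 members, called genes and the 3 highest per kilobase of each list, the genes nearest in pattern, and the targeted genes. A few further genes, such as *Vav1* and *Cd4*, were named only as examples of their lists. Promoter sequences are from RefSeq, which matched all 9 members. Protein sequences were not used here.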

Additional observations from a re-analysis of the deposited data

Results flagged for a closer look

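For 7 of the 9 genes the difference between Zmat3-/- and wt mice depended on the *Xist* class of the mice, by an interaction term in edgeR over these 8 mice with an adjusted p under 0.05. The log2FC with high *Xist* minus that with low *Xist* was -0.97 for *Lat* (adjusted p = 0.00225 from edgeR), -0.56 for *Lck* (0.00526), -0.38 for *Zap70* (0.0139), -0.31 for *Ptpn6* (0.0218) and -0.27 for *Csk* (0.0381). It was 0.74 for *Themis* (adjusted p = 0.00994 from edgeR) and 0.65 for *Ptprc* (0.0130). *Lcp2* was at -0.24 (adjusted p = 0.0704) and *Fyn* at -0.13 (adjusted p = 0.402). Of all 13480 genes tested, 44.2% passed the same test. With transcript length offsets 2 members passed, *Lck* at -0.31 (adjusted p = 0.0375) and *Lcp2* at -0.37 (adjusted p = 0.00842), beside 24.5% of all genes. The wt mice with high *Xist* are wt mice 1 and 2, which also hold more counts on short transcripts, so the classes and that difference cannot be told apart. Each class holds 2 mice per genotype. For *Fyn*, Zmat3-/- mouse 1 (176 CPM) lay apart from the next mouse (164 CPM), by 0.833 of the range of the 4 mice. It was 1 of the 18 groups of 4 mice checked, and chance gives such a gap in about 1 in 20 groups.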

How the results depend on the processing

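With each single mouse left out, with DESeq2, RLE factors, total counts, no filter, all genotypes in one fit, the *Xist* level, the replicate block (0 members) or length offsets, 0 of 9 members were called in every comparison. Over all genes these settings called 16 to 382 in TKO against wt, 12 to 1082 in Zmat3-/- against wt and 16 to 90 in TKO against Zmat3-/- mice. In Zmat3-/- against wt mice 4 members were called with 1 surrogate variable, 1 without wt mice 1 and 2, and 2 when length offsets were added to that. In TKO against wt mice the numbers were 2, 0 and 1. The median log2FC of members in TKO against Zmat3-/- mice moved to 0.14 with total counts. For same-numbered TKO and Zmat3-/- mice the correlations of deviations differed in sign (0.25, -0.21 and 0.20), and the block there changed the calls over all genes from 29 to 21. DESeq2 called 382, 1082 and 72 of all genes in TKO against wt, Zmat3-/- against wt and TKO against Zmat3-/- mice, where edgeR called 39, 103 and 29. Of the 72 other pathway genes, 12 were called in TKO and 28 in Zmat3-/- against wt mice with 1 surrogate variable, beside 18.0% and 37.8% of all genes, and 2 and 24 without wt mice 1 and 2, beside 8.14% and 33.0%. Over the alternatives the medians against wt in TKO and Zmat3-/- mice ran over -0.30 to 0.0720 and -0.35 to 0.11 for receptor chains, 0.0495 to 0.18 and 0.00349 to 0.15 for partners, -0.0167 to 0.0794 and -0.10 to 0.0417 for inhibitors, and -0.0194 to 0.27 and 0.10 to 0.28 for relatives. In TKO against Zmat3-/- mice they ran over -0.0350 to 0.0640, -0.0295 to 0.0503, -0.0237 to 0.0750 and -0.19 to 0.10 in the same order.

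The values that turned passed no test in the edgeR fit with all mice and no covariate. With 1 surrogate variable, *Lck*, *Themis* and *Ptprc* in Zmat3-/- and *Themis* in TKO against wt mice were called, in the direction opposite to that without wt mice 1 and 2. Without wt mice 1 and 2, log2FC was 0.15 for *Lck*, 0.16 for *Zap70*, 0.0679 for *Lcp2*, -0.00111 for *Themis*, 0.13 for *Ptpn6* and -0.10 for *Ptprc* in TKO, and 0.0407 for *Lck*, 0.0720 for *Fyn*, 0.0880 for *Zap70*, 0.0347 for *Lcp2*, -0.0419 for *Themis*, 0.13 for *Ptpn6* and -0.19 for *Ptprc* in Zmat3-/- against wt mice. With length offsets added it was 0.15 for *Lck*, 0.16 for *Zap70*, 0.0999 for *Lcp2*, 0.13 for *Ptpn6* and -0.0559 for *Ptprc* in TKO, and 0.0220 for *Lck*, 0.11 for *Fyn*, 0.0729 for *Zap70*, 0.0711 for *Lcp2*, 0.11 for *Ptpn6* and -0.13 for *Ptprc* in Zmat3-/- mice. In TKO against wt mice *Lcp2* was at 0.0117 with no filter, and *Zap70* at 0.0126 with 1 surrogate variable, 0.0786 with length offsets and 0.0478 with offsets and block. In Zmat3-/- against wt mice *Csk* was at -0.0817 with total counts and *Fyn* at 0.000210 with 1 surrogate variable. In TKO against Zmat3-/- mice *Ptpn6* was at 0.0577 with total counts, 0.00601 with no filter, 0.000821 in one fit, 0.0106 with the *Xist* level, 0.0408 with 1 surrogate variable and 0.00469 with length offsets. With single mice left out, log2FC ranged over -0.12 to 0.0456 for *Zap70* and -0.0623 to 0.0154 for *Lcp2* in TKO against wt, -0.0622 to 0.0414 for *Fyn* and -0.0364 to 0.0923 for *Csk* in Zmat3-/- against wt, and -0.0553 to 0.0551 for *Ptpn6* and -0.0109 to 0.0966 for *Themis* in TKO against Zmat3-/- mice. With factors over all genes, chosen after seeing the data, the difference in mean log2 CPM of TKO from wt mice was 0.00607 for *Zap70* and 0.0138 for *Lcp2*. The cause of these turns was not tested.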
